A study of Mus musculus with 6 samples.

Results

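Expression of 10 genes of xenobiotic metabolism was followed in 6 mouse hepatocellular carcinomas (HCC): the inducible cytochromes P450 Cyp1a1, Cyp1a2, Cyp1b1, Cyp2a5, Cyp2b9, Cyp2b10 and Cyp2b13, the receptor genes Ahr and Nr1i3, and Tiparp. The genes were chosen by name, and their probes were those whose RefSeq accession on the array maps to 1 of these symbols. This gave 12 probes, with 2 probes each for Cyp2b10 and Nr1i3, among 27412 features tested in all (15868 with a gene symbol). All 10 genes entered the test. For 8 of them the probe used was well above background, by the scanner's own mark, on all 6 arrays.

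RNA of 1 frozen tumour was hybridised to each 1-colour Agilent array, and each of 3 groups held 2 tumours on the C57BL/6 background. Epcam-derived HCC with CLC and Epcam-derived HCC without CLC came from tamoxifen-given Epcam-AID mice kept 8 months on a diet with 0.1% DDC, a porphyrin-raising compound used in rodents to provoke a ductular reaction. Albumin-derived HCC without CLC came from Alb-AID mice killed at 90 weeks, for which the labels give neither tamoxifen nor DDC. The lines are named for Epcam, a surface protein of ductular progenitor cells, and for Alb, a hepatocyte gene, and the labels spell out neither AID nor CLC, give no sex for any animal, and give no age for the Epcam-AID mice. Origin, diet and tamoxifen differ together between Epcam-derived and Albumin-derived tumours, age and sex make-up may differ too, and these cannot be told apart. The Y-linked gene Eif2s3y was well above background in both Albumin-derived tumours, but in only 1 of the 2 tumours of each Epcam-derived group. Slide is partly confounded with group as well. The labels do not say which tumours came from separate animals, so p-values measure the spread between these samples only.

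The aryl hydrocarbon receptor (AhR, encoded by Ahr) is a cytosolic protein that binds planar aromatic ligands, enters the nucleus, pairs with ARNT and switches on the Cyp1 genes and a battery of conjugating enzymes. The constitutive androstane receptor (CAR, encoded by Nr1i3) responds in hepatocytes to phenobarbital-like compounds, pairs with RXR and induces Cyp2b10 together with other Cyp2, Cyp3, transferase and transporter genes. In mouse liver Cyp2b9 and Cyp2b13 are also known for higher expression in females, under growth hormone control.

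The sequences just before the gene starts are shown because Cyp1a1 and Cyp1a2 lie next to each other on chromosome 9 and had like patterns, while Cyp2b10, Cyp2b13 and Cyp2b9 lie in a row on chromosome 7 and had like patterns too. RefSeq promoters (GRCm38.p6) were found for 9 of the 10 genes, and the 250 bases before each start were searched on both strands for GCGTG, the core of the AhR element. GCGTG was present in 4 of these 9 windows (Cyp1a1, Cyp1b1, Cyp2b10 and Tiparp) and in 28.2% of 32851 mouse promoter windows of the same length. In the window of Cyp1a1 it stood at positions -54 to -50 from the start. The windows of Cyp1a1 (chr9:57697363-57697612, plus strand) and Cyp1a2 (chr9:57683656-57683905, minus strand) aligned with 49.2% identity. Pairs from different chromosomes reached like values, 48.8% for Cyp1a1 with Cyp2a5 and 52.4% for Cyp1a2 with Cyp2b10. The 49.2% therefore shows no particular likeness. The windows of Cyp1a1 and Cyp1a2 are printed 5′ to 3′ with GCGTG in capitals, and Cyp1a2 held none.
Cyp1a1: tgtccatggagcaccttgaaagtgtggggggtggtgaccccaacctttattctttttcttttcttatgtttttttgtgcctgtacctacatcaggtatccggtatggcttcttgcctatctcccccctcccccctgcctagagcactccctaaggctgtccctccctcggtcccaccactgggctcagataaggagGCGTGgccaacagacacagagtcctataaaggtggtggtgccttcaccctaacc
Cyp1a2: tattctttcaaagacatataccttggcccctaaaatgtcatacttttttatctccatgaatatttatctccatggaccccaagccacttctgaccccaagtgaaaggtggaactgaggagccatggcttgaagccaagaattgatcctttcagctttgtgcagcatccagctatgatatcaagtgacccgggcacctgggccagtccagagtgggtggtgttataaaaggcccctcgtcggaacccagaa

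The windows of Cyp2b9 (chr7:26173159-26173408, plus strand) and Cyp2b13 (chr7:26061245-26061494, plus strand) were identical at 248 of 250 bases, or 99.2%. Counted from 1 at the 5′ end and read from Cyp2b9 to Cyp2b13, the differences were T48C and C104T, which are in capitals here.
Cyp2b9: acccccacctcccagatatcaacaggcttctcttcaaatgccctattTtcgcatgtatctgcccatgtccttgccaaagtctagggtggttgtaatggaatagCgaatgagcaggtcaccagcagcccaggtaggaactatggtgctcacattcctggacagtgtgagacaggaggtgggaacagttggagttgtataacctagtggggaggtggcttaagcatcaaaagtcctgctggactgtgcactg
Cyp2b13: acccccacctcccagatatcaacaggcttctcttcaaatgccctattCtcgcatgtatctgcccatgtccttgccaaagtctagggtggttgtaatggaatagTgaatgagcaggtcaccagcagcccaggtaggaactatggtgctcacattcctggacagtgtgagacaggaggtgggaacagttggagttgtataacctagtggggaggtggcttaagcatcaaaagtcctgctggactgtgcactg
The window of Cyp2b10 (chr7:25897408-25897657, plus strand) aligned with that of Cyp2b9 at 71.0% identity and held GCGTG 2 times, once on each strand (capitals; CACGC is the same motif on the other strand).
Cyp2b10: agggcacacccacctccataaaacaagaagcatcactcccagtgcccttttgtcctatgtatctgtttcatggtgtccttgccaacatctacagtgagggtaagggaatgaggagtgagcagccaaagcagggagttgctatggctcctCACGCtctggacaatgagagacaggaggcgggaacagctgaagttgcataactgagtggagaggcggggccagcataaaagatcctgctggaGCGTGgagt
The inverted repeat TTCNNNGAA, a core that STAT proteins bind, occurred in 0 of the 9 windows and in 7.02% of all promoter windows. These are matches of letters and no evidence of binding.

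Cyp1a1 and Cyp1a2 had the highest signal in Epcam-derived tumours. Levels are given as log2 normalised signal, the log2 of a probe's signal over the 75th percentile of its array, so that 0 is that percentile and 1 unit is a doubling. Cyp1a1, which oxidises polycyclic aromatic hydrocarbons, stood at -2.94 and -1.59 in Epcam-derived tumours with CLC and at -1.56 and -1.55 in those without CLC, against -4.94 and -6.84 in Albumin-derived tumours. Both Albumin-derived values were not well above background, the 4 Epcam-derived values were, and no 2 groups overlapped. A fold against Albumin-derived tumours is therefore a bound, taken on each of those arrays against the dimmest signal that the scanner still marked as well above background, or the probe's own where that was brighter. By this bound, tumours with CLC had at least 5.23-fold higher Cyp1a1, and tumours without CLC at least 8.54-fold higher. Over both Epcam-derived groups Cyp1a1 was at least 6.68-fold higher. These bounds, and the later ones, hold only for the processing reported. The dimmest marked signal is also no strict limit of detection. On replicate 1 with CLC it was -4.07, yet the second Cyp2b10 probe, at -3.86, was not well above background there. The limma adjusted p was 0.128 with CLC, 0.0833 without CLC and 0.0607 over both groups, so that no comparison passed the threshold of 0.05 after Benjamini-Hochberg adjustment over all features.

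Cyp1a2, the constitutive hepatic member of the family and an oxidiser of aromatic amines and caffeine, followed the same pattern with every array above background. Its levels were 0.62 and 1.60 in Epcam-derived tumours with CLC and 1.15 and 1.86 in those without CLC, against -1.70 and -3.17 in Albumin-derived tumours. All 4 Epcam-derived tumours lay above both Albumin-derived ones. The log2 difference from Albumin-derived tumours was 3.55 ± 0.61 with CLC (SE, n = 2 each, limma adjusted p = 0.112), a fold of 11.7. Without CLC it was 3.95 ± 0.61 (limma adjusted p = 0.0767), a fold of 15.4, and over both Epcam-derived groups 3.75 ± 0.53 (limma adjusted p = 0.0547), a fold of 13.4. Under the alternatives, a crossed replicate block aside, the limma adjusted p over both groups lay between 0.0357 and 0.376 for Cyp1a2 and between 0.0450 and 0.421 for Cyp1a1. With normexp background correction, which lifts dim probes, the fitted difference over both groups was 1.16 for Cyp1a1 and 2.75 for Cyp1a2 (log2), where the processed signal gave 3.98 and 3.75. The fitted Cyp1a1 values take the Albumin-derived signals as measured and are no bounds.

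Scanner slides were unevenly filled, with both Albumin-derived tumours and 1 with CLC on slide 1 and both tumours without CLC and the other with CLC on slide 2. Only the group with CLC was on both slides, so its 2 tumours alone set any slide term. With slide as a block, the difference over both Epcam-derived groups was 3.01 for Cyp1a2 (limma adjusted p = 0.376), and the limma adjusted p for Cyp1a1 was 0.421. Within slide 1, the tumour with CLC exceeded the Albumin-derived tumours by 3.06 for Cyp1a2 (log2), while Cyp1a1 has no fixed difference there because both Albumin-derived tumours were not well above background. The difference between the Epcam-derived groups was smaller than its SE for both genes. The 95% interval of the difference with CLC minus without CLC ran from -2.53 to 1.11 for Cyp1a1 and from -1.93 to 1.13 for Cyp1a2 (log2).

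Cyp1b1, a Cyp1 enzyme of steroids and aromatic hydrocarbons that is expressed mainly outside hepatocytes, was spread within each group. Its levels were -2.07 and -0.08 in Epcam-derived tumours with CLC and -0.15 and -2.31 in those without CLC, against -3.47 and -1.88 in Albumin-derived tumours. The groups overlapped: 1 tumour of each Epcam-derived group lay below the higher Albumin-derived tumour. The difference from Albumin-derived tumours was 1.60 ± 1.02 with CLC (limma adjusted p = 0.501) and 1.44 ± 1.02 without CLC (limma adjusted p = 0.464). With slide as a block these became 0.61 and -0.54, so the sign in tumours without CLC depended on the slide term. In bulk RNA, fewer cells of a type and less RNA per cell cannot be told apart.

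**Figure D1:**
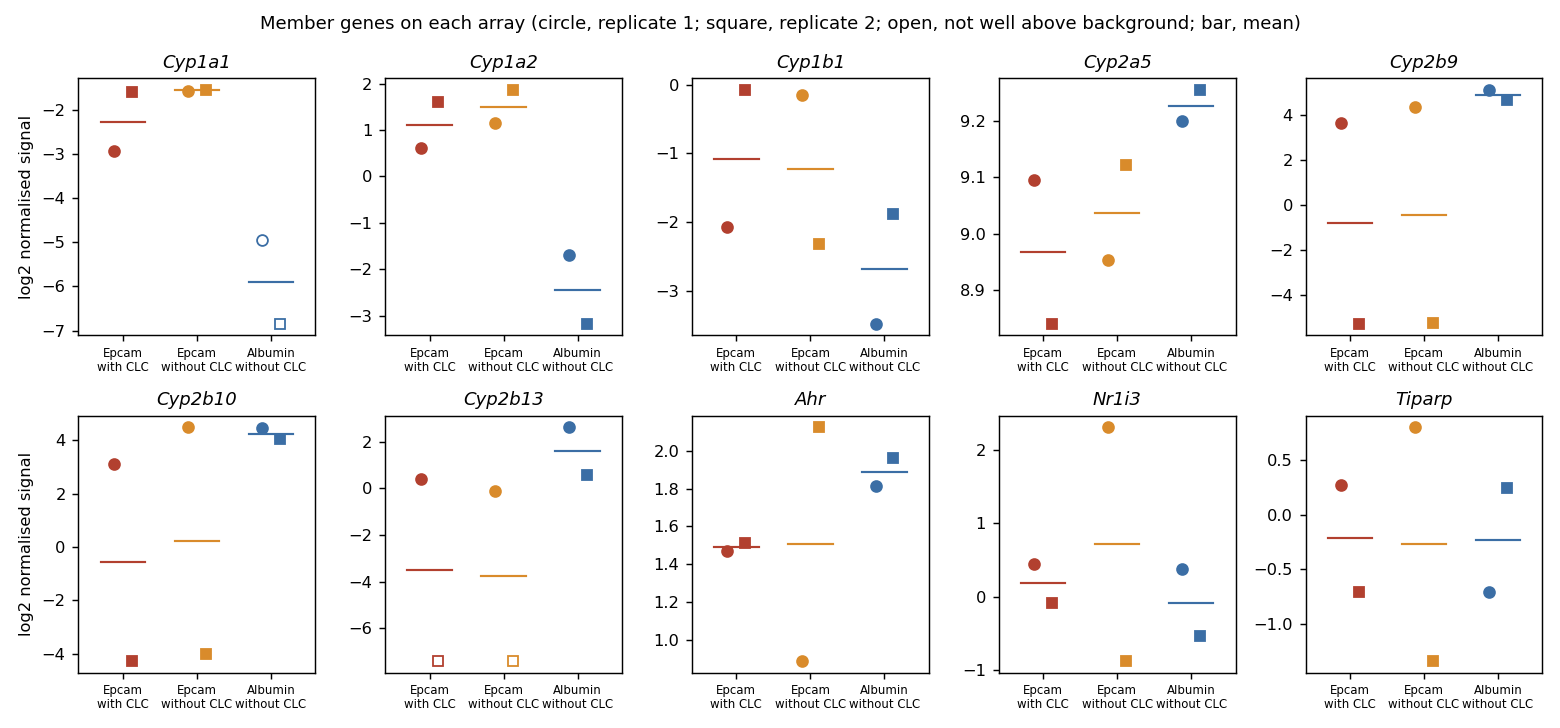
Log2 normalised signal of the 10 genes on each array, with Epcam-derived tumours with CLC and without CLC left of Albumin-derived tumours. Each panel has its own scale, 1 marker is 1 tumour (open where not well above background) and the bar is the group mean. Cyp1a1 and Cyp1a2 separate the Epcam-derived from the Albumin-derived tumours, and the Cyp2b genes split the 2 tumours of each Epcam-derived group.

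The 3 Cyp2b genes of the phenobarbital-inducible cluster were high in both Albumin-derived tumours and in replicate 1 of each Epcam-derived group, and low in replicate 2 of each. Cyp2b9, a female-predominant steroid hydroxylase of mouse liver, stood at 3.64 and -5.27 in Epcam-derived tumours with CLC and at 4.38 and -5.24 in those without CLC, against 5.12 and 4.70 in Albumin-derived tumours. As scanner intensity this was 3926 and 12.6 with CLC and 8824 and 12.1 without CLC, against 9923 and 7970 in Albumin-derived tumours. All Epcam-derived tumours lay below both Albumin-derived ones, and the Epcam-derived groups overlapped each other. The Epcam-derived replicates lay farther from each other than the higher ones lay from the Albumin-derived tumours.

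Cyp2b10, the classic CAR target, showed the same split, with 3.12 and -4.27 in Epcam-derived tumours with CLC and 4.48 and -4.03 in those without CLC, against 4.45 and 4.05 in Albumin-derived tumours. Here 1 tumour without CLC lay above both Albumin-derived tumours. Cyp2b13, a close relative of Cyp2b9, stood at 0.38 and -7.41 with CLC and at -0.13 and -7.39 without CLC, against 2.61 and 0.58 in Albumin-derived tumours. Replicate 2 of both Epcam-derived groups was not well above background for Cyp2b13, and no Epcam-derived tumour reached the lower Albumin-derived one.

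The gap between replicates was 8.91 log2 units for Cyp2b9 with CLC, exceeded by no other of the 27412 features in that group, and 9.62 without CLC, where 1 other feature had a larger gap. On replicate 2 Cyp2b9 lay near the dimmest signal still marked well above background, -5.59 with CLC and -5.63 without CLC. Features not well above background on 1 array are ranked too, so these sizes and ranks are approximate. In Albumin-derived tumours the Cyp2b9 gap was 0.42. The median gap over all features was 0.39 with CLC, 0.38 without CLC and 0.34 in Albumin-derived tumours. Cyp2b10 had a gap of 7.40 with CLC, ranking 4, and of 8.51 without CLC, ranking 8. The gaps of Cyp2b13 have no fixed size or rank, since replicate 2 of both groups was not well above background. These gaps set the error of every comparison of the Cyp2b genes.

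**Figure D2:**
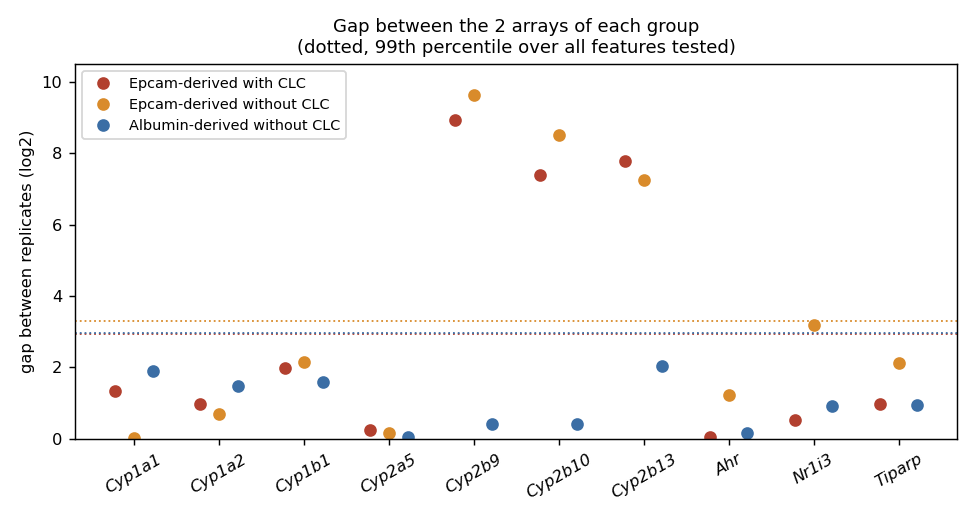
Absolute gap in log2 normalised signal between the 2 arrays of a group for each gene, with the 99th percentile over all 27412 features as a dotted line per group. The Cyp2b genes stand far above that line in both Epcam-derived groups and below it in Albumin-derived tumours, and Cyp2b13 is plotted at its measured signal although replicate 2 of both Epcam-derived groups was not well above background.

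Against Albumin-derived tumours, Cyp2b9 differed by -5.73 ± 3.92 with CLC (limma adjusted p = 0.528) and by -5.35 ± 3.92 without CLC (limma adjusted p = 0.479). For Cyp2b10 the differences were -4.82 ± 3.38 (limma adjusted p = 0.537) and -4.02 ± 3.38 (limma adjusted p = 0.535), and for Cyp2b13 -5.11 ± 3.24 (limma adjusted p = 0.498) and -5.36 ± 3.24 (limma adjusted p = 0.399). None passed, and Cyp2b13 was well above background on 1 of the 2 arrays of each Epcam-derived group. One tumour decided each value: without replicate 2 of the tumours with CLC, the difference from Albumin-derived tumours was -1.27 for Cyp2b9, -1.12 for Cyp2b10 and -1.21 for Cyp2b13. Leaving out replicate 2 of the tumours without CLC gave -0.54 for Cyp2b9, 0.24 for Cyp2b10 and -1.73 for Cyp2b13. Without replicate 1 of the tumours without CLC, the differences were -10.16 for Cyp2b9 and -8.28 for Cyp2b10, and without replicate 1 of those with CLC -10.19 and -8.52. For Cyp2b13 the tumours then left were not well above background. With slide as a block, the differences without CLC turned to 3.57 for Cyp2b9, 3.38 for Cyp2b10 and 2.43 for Cyp2b13. This slide term comes from the 2 tumours with CLC alone, so slide and their replicate gap cannot be told apart.

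The second Cyp2b10 probe was well above background on 2 arrays only, replicate 1 without CLC and replicate 1 of the Albumin-derived tumours. It read -3.86 and -7.75 with CLC and -0.02 and -7.77 without CLC, against -2.61 and -5.26 in Albumin-derived tumours, and its difference without CLC was 0.04 where the brighter probe gave -4.02. The 2 probes correlated at 0.851 over the 6 arrays, and the brighter one stands for the gene.

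Transcripts of the sex chromosomes were read beside the Cyp2b genes, because Cyp2b9 and Cyp2b13 are known as female-predominant. Xist, the X-inactivation RNA, stood at -0.08 and -7.77 with CLC and at -0.95 and -7.42 without CLC, against -3.11 and -6.74 in Albumin-derived tumours, and was well above background on replicate 1 of each group only. Eif2s3y, a Y-linked translation factor gene, stood at -6.02 and 1.09 with CLC and at -7.39 and 1.26 without CLC, against 1.47 and 1.01 in Albumin-derived tumours. On replicate 1 of both Epcam-derived groups Eif2s3y was not well above background. Thus the Epcam-derived tumours with low Cyp2b signal were those with Eif2s3y signal, whereas both Albumin-derived tumours had Eif2s3y signal and high Cyp2b signal. Replicate 1 of the Albumin-derived tumours had both Xist and Eif2s3y signal.

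Kdm5d, a Y-linked histone demethylase gene, stood at -5.09 and -2.08 with CLC and at -7.57 and -2.01 without CLC, against -1.51 and -1.83 in Albumin-derived tumours. Uty, a Y-linked relative of the histone demethylase gene Kdm6a, stood at -3.13 and -2.38 with CLC and at -7.43 and -2.28 without CLC, against -1.73 and -1.87 in Albumin-derived tumours. Ddx3y, a Y-linked RNA helicase gene, stood at -6.11 and -2.04 with CLC and at -7.48 and -2.04 without CLC, against -1.20 and -5.01 in Albumin-derived tumours. Kdm5d and Ddx3y were not well above background on replicate 1 of both Epcam-derived groups, nor was Ddx3y on replicate 2 of the Albumin-derived tumours. Uty was not well above background on replicate 1 without CLC, but it was on replicate 1 with CLC. Each of these Y-linked genes was lower on replicate 1 than on replicate 2 of both Epcam-derived groups, where the Cyp2b genes were higher. The part of sex in the Cyp2b result, and in the other comparisons with Albumin-derived tumours, was not tested.

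**Figure D3:**
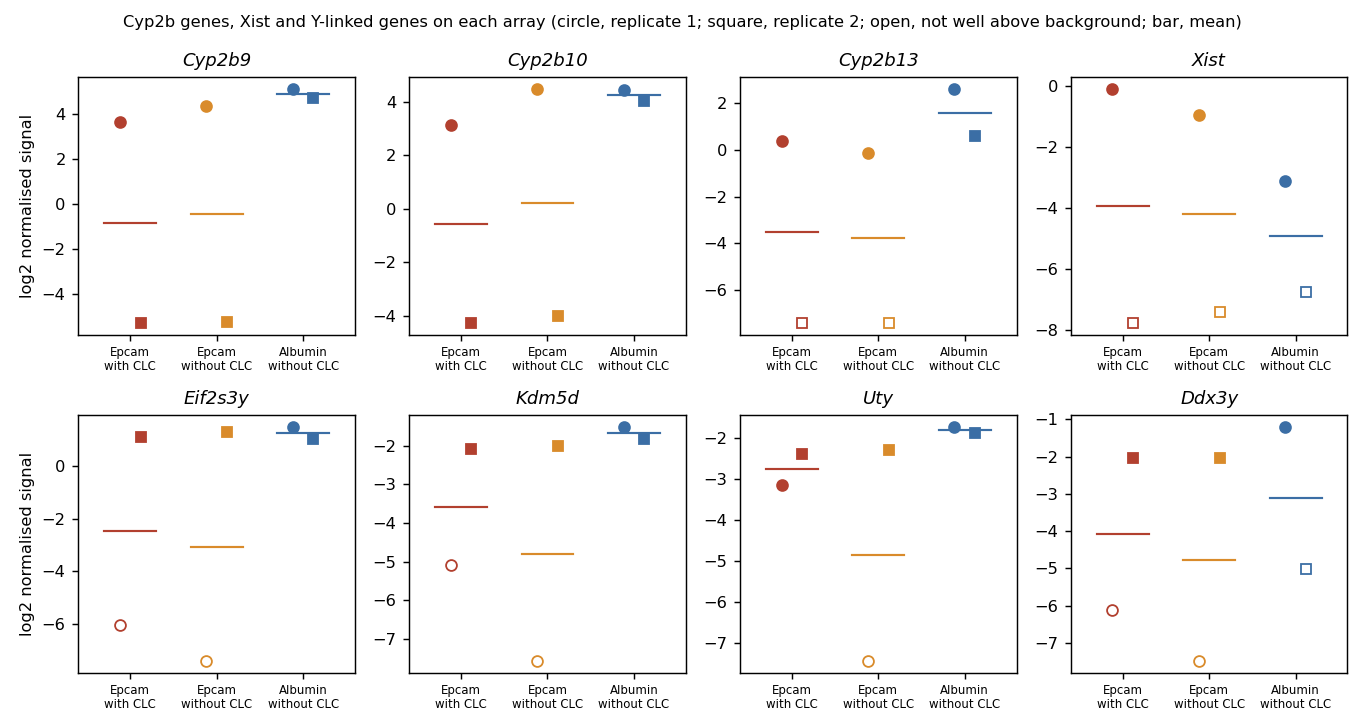
Log2 normalised signal on each array of the 3 Cyp2b genes (first 3 panels), Xist and 4 Y-linked genes, with the Epcam-derived groups left of the Albumin-derived group and a scale for each panel. Cyp2b9 and Eif2s3y run opposite within both Epcam-derived groups, and both are high in the 2 Albumin-derived tumours.

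Cyp2a5, the mouse coumarin hydroxylase, which is inducible and also oxidises bilirubin, was bright on every array and hardly varied. Its levels were 9.10 and 8.84 with CLC and 8.95 and 9.12 without CLC, against 9.20 and 9.25 in Albumin-derived tumours. Both Albumin-derived tumours were highest, and the Epcam-derived groups overlapped each other. The difference was -0.26 ± 0.25 with CLC (limma adjusted p = 0.660) and -0.22 ± 0.22 over both Epcam-derived groups (limma adjusted p = 0.579), and it turned positive, at 0.18 and 0.17, under quantile normalization. Its near copy Cyp2a4, a steroid hydroxylase, stood at 9.33 and 8.76 with CLC and at 9.17 and 9.35 without CLC, against 9.55 and 9.62 in Albumin-derived tumours. The 2 enzymes are nearly identical in sequence, and whether their probes tell them apart was not tested, so both levels are uncertain as to which gene they measure.

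Other relatives in the cluster behaved differently. Cyp2a22 stood between 3.91 and 6.39 in Epcam-derived tumours, against 4.30 and 4.35 in Albumin-derived tumours, without separation of the groups. Cyp2b23 was not well above background on any array, and Cyp2b19, known from skin, stood at -4.89 and -4.95 with CLC and -5.02 and -4.63 without CLC, against -6.18 and -5.72 in Albumin-derived tumours, 3 of these 6 values being not well above background. Cyp2b9, Cyp2b10 and Cyp2b13 share sequence as well, and cross-hybridisation among their probes was not tested.

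Ahr itself stood at 1.47 and 1.51 with CLC and at 0.89 and 2.12 without CLC, against 1.81 and 1.96 in Albumin-derived tumours. The tumours without CLC lay on both sides of all others. The difference of Ahr over both Epcam-derived groups was -0.39 ± 0.38 (limma adjusted p = 0.580), opposite in sign to that of its target genes Cyp1a1 and Cyp1a2. Tiparp, an AhR-induced ADP-ribosyltransferase that dampens the receptor, stood at 0.27 and -0.70 with CLC and at 0.79 and -1.33 without CLC, against -0.70 and 0.24 in Albumin-derived tumours. All 3 groups overlapped and no difference of Tiparp exceeded its SE.

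Nr1i3 stood at 0.45 and -0.08 with CLC and at 2.31 and -0.87 without CLC, against 0.37 and -0.54 in Albumin-derived tumours. Both the highest and the lowest tumour were without CLC, and no difference of Nr1i3 exceeded its SE. The second Nr1i3 probe gave -1.45 and -2.36 with CLC and 0.16 and -3.26 without CLC, against -1.52 and -2.55 in Albumin-derived tumours, and followed the first at a correlation of 0.986 over the 6 arrays. For member genes, differences smaller than their SE are given by their tumours' values only, a choice made after the values were seen.

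Across the 10 genes, limma called 0 in each of the 4 comparisons. The background share of features called was 0.062% (17 features) for Epcam-derived with CLC against Albumin-derived tumours, 0.244% (67) for Epcam-derived without CLC against Albumin-derived tumours, 0% (0) for with CLC against without CLC, and 0.814% (223) for both Epcam-derived groups against Albumin-derived tumours. At an unadjusted limma p under 0.05, Cyp1a1 and Cyp1a2, 2 of 10 members, passed with CLC, without CLC and over both groups against Albumin-derived tumours, beside 16%, 20% and 21.7% of all features. The members' share was thus near that of all features. Between the Epcam-derived groups 0 members passed at that level, beside 3.48% of all features (954). Under the alternatives, the number called over both Epcam-derived groups ranged from 0 to 2. These comparisons share tumours and are not independent.

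Counted by groups that do not overlap, 2 members were higher and 5 lower with CLC than in Albumin-derived tumours, beside 23.8% and 27% of all features. Without CLC, 2 were higher and 3 lower, beside 30.4% and 24.8% of all features. Between with CLC and without CLC, 0 were higher and 1 lower (Cyp1a1), beside 10.3% and 19.8%, and over both Epcam-derived groups 2 were higher and 3 lower, beside 17.6% and 18.2%. The higher ones were Cyp1a1 and Cyp1a2 each time. The median log2 difference over both Epcam-derived groups was -0.12 for the 10 genes and 0.03 for all features.

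**Figure D4:**
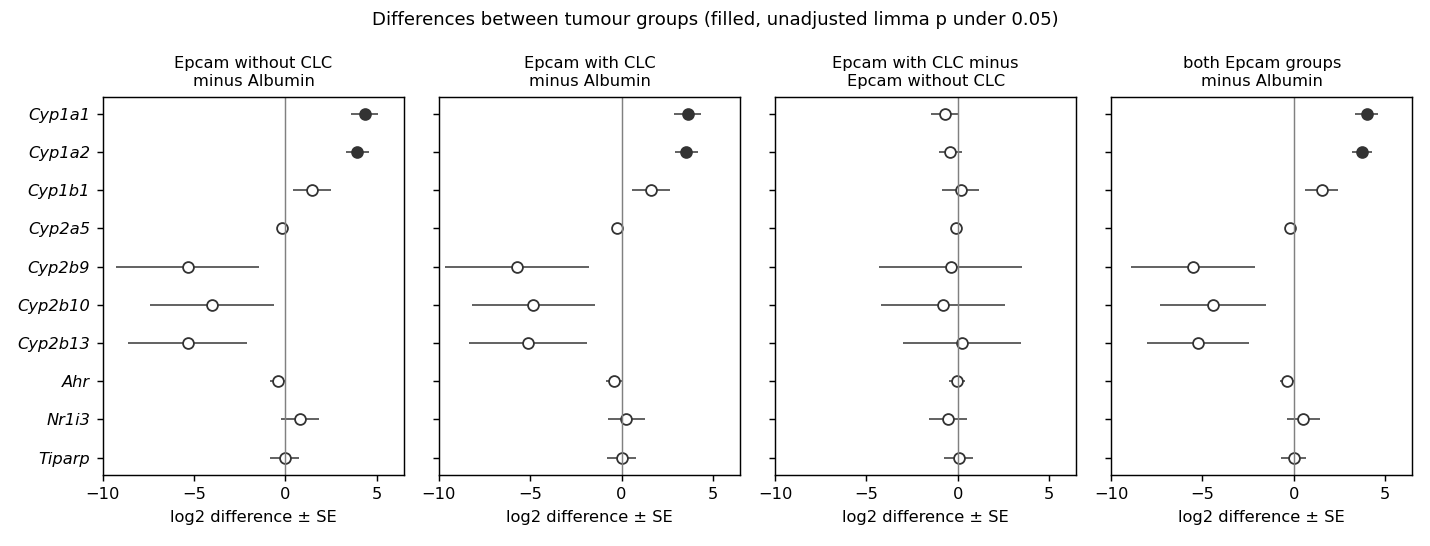
Log2 difference with its SE for each gene in the 4 comparisons, filled where the unadjusted limma p was under 0.05. Cyp1a1 and Cyp1a2 are filled in the 3 comparisons with Albumin-derived tumours, where the plotted Cyp1a1 value is the fitted one and not the bound given in the text, and the Cyp2b genes have the widest errors.

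Over the 6 arrays, and as a description only, Cyp2b9 followed Cyp2b10 at a Pearson correlation of 0.998 and Cyp2b13 at 0.987, Cyp1a1 followed Cyp1a2 at 0.991, and Ahr ran against Nr1i3 at -0.933. The points share their arrays. Among 15867 other named features, between 0 and 5 exceeded 0.99 for each member compared, and those most like Cyp1a2 were Olfml1 (0.999), Rel (0.993) and P2ry1 (0.991). Those most like Cyp2b9 were Cyp2b10 (0.998), Zmynd8 (0.991) and Scly (0.991), and those most like Ahr were Lcor (0.993), Med29 (0.992) and Brk1 (0.991).

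Of 14 measured other genes of the AhR battery, 10 had a positive and 4 a negative difference over both Epcam-derived groups. Over all 27412 features, 14339 were positive and 13073 negative. After adjustment 0 of the 14 battery genes passed, and 8 had an unadjusted limma p under 0.05, beside 21.7% of all features. The median log2 difference of these genes over both Epcam-derived groups was 0.83, beside 0.03 for all features. Nqo1, a quinone reductase that AhR and NRF2 both induce, stood at 2.11 and 2.20 with CLC and at 2.03 and 2.94 without CLC, against 0.08 and -0.93 in Albumin-derived tumours. The difference of Nqo1 was 2.75 ± 0.41 (limma adjusted p = 0.0569). Gsta2, a glutathione transferase, stood at 7.03 and 7.52 with CLC and at 7.02 and 8.39 without CLC, against 4.80 and 0.91, a difference of 4.63 ± 1.09 (limma adjusted p = 0.103). Both genes had all 4 Epcam-derived tumours above the Albumin-derived ones.

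Ugt1a6a, a glucuronosyltransferase and a further AhR target, stood at -1.63 and -1.08 with CLC and at -0.82 and -0.34 without CLC, against -2.90 and -3.50 in Albumin-derived tumours (limma adjusted p = 0.0548). Areg, an EGF receptor ligand that AhR can induce, was on the other side, at -3.16 and -3.39 with CLC and -1.60 and -6.43 without CLC, against 1.39 and 0.31 in Albumin-derived tumours, the value of -6.43 being not well above background. The difference of Areg was -4.50 ± 1.30 (limma adjusted p = 0.144). Cyp2s1, a further AhR-inducible P450, differed by -0.95 ± 0.29 over both Epcam-derived groups (limma adjusted p = 0.155). It stood at -2.19 and -1.91 with CLC and at -3.48 and -3.86 without CLC, against -2.23 and -1.60 in Albumin-derived tumours. Only the tumours without CLC lay below both Albumin-derived ones. Ugt1a6b, a relative of Ugt1a6a that was brighter on every array, stood at 7.25 and 6.97 with CLC and at 7.86 and 7.69 without CLC. In Albumin-derived tumours Ugt1a6b stood at 8.00 and 7.76. Both tumours with CLC lay below these, and those without CLC overlapped them. The AhR battery therefore did not stand on 1 side. Whether the probes of Ugt1a6a and Ugt1a6b tell the 2 genes apart was not tested.

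Of 27 measured other CAR and PXR targets, 19 had a positive and 8 a negative difference over both Epcam-derived groups, with a median of 0.98 beside 0.03 for all features. Over all 27412 features, 14339 were positive and 13073 negative. At an unadjusted limma p under 0.05, 19 of the 27 targets passed, beside 21.7% of all features. After adjustment 1 target rose and 1 fell, beside 69 and 154 of all features. Abcc3, a basolateral exporter of conjugates, stood at 5.45 and 5.25 with CLC and at 5.47 and 6.38 without CLC, against 2.58 and 3.07 in Albumin-derived tumours, and rose by 2.81 ± 0.34 (limma adjusted p = 0.0422). Sult2a8, a hepatic sulfotransferase, stood at 0.15 and 0.89 with CLC and at 0.37 and 0.14 without CLC, against 4.06 and 3.02, and fell by 3.15 ± 0.39 on the log2 scale (limma adjusted p = 0.0455). Both calls were lost when any 1 of the 6 arrays was left out and with slide or replicate number as a block, with limma adjusted p up to 0.290 for Abcc3 and 0.275 for Sult2a8.

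Gsta4, a glutathione transferase for lipid aldehydes, had the largest positive difference of the CAR and PXR list, at 3.91 ± 0.91 (limma adjusted p = 0.101). Sult1e1, the oestrogen sulfotransferase, was at least 2.51-fold higher than in Albumin-derived tumours, where it was not well above background (limma adjusted p = 0.148). Cyp3a11, the main PXR-inducible P450 of mouse liver, stood at 4.65 and 2.12 with CLC and at 3.14 and 0.48 without CLC, against 5.98 and 5.06 in Albumin-derived tumours, a difference of -2.92 ± 1.00 (limma adjusted p = 0.184). Like the Cyp2b genes, Cyp3a11 was lower on replicate 2 of each Epcam-derived group, but by a smaller gap.

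**Figure D5:**
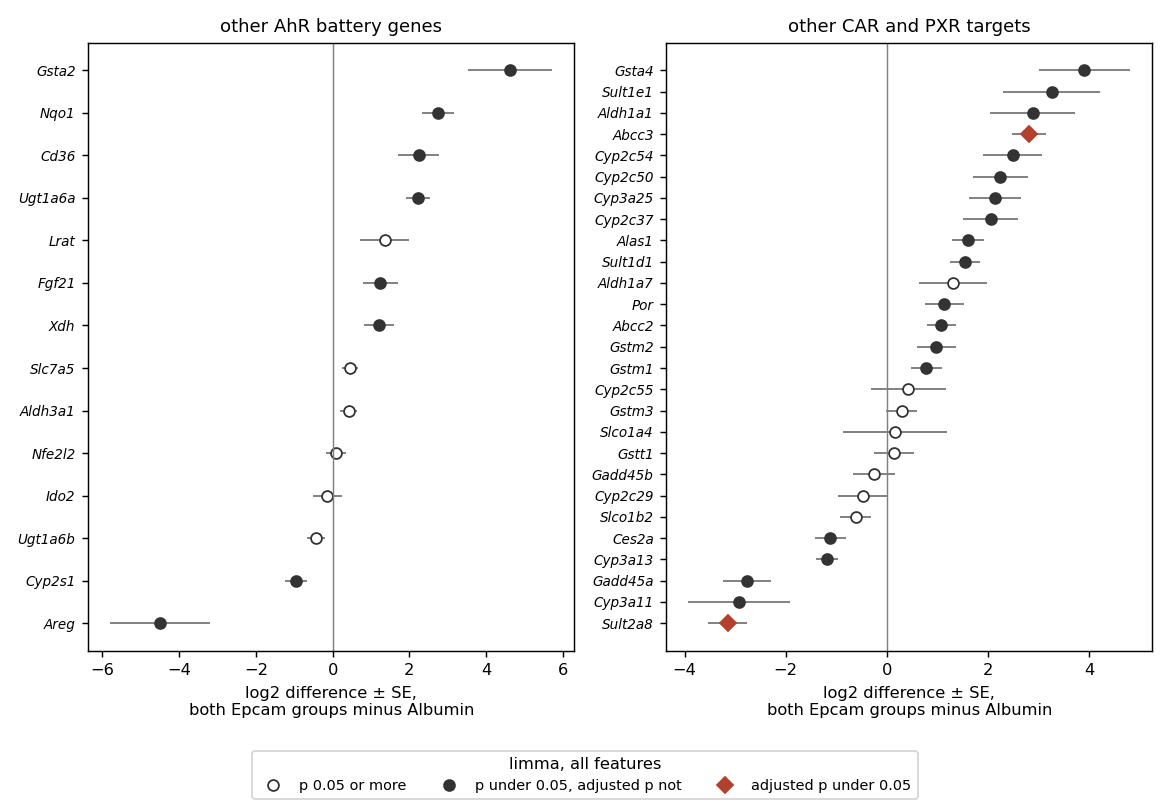
Log2 difference and SE of the other measured AhR battery genes (left) and CAR and PXR targets (right), both Epcam-derived groups minus Albumin-derived tumours. Abcc3 and Sult2a8 are the genes drawn as diamonds, which passed after adjustment over all features, and most points of both lists lie right of 0.

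Among 14 measured partners and regulators of CAR, 0 passed. Ppargc1a, a coactivator induced in fasting, stood at -0.87 and -0.49 with CLC and at -1.03 and 0.19 without CLC, against -2.30 and -2.94 in Albumin-derived tumours, a difference of 2.07 ± 0.42 (limma adjusted p = 0.0823). Egfr, whose signalling holds CAR in the cytosol, differed by -0.88 ± 0.33 (limma adjusted p = 0.206). Of 16 measured genes for P450 electron transfer and heme supply, 1 rose after adjustment, Blvrb, a biliverdin reductase, by 2.71 ± 0.32 (limma adjusted p = 0.0422). Alas1, the first enzyme of heme synthesis, stood at 7.15 and 6.29 with CLC and at 6.28 and 6.68 without CLC, against 4.96 and 5.02 in Albumin-derived tumours, a difference of 1.61 ± 0.32 (limma adjusted p = 0.0790). The call of Blvrb was likewise lost when any 1 array was left out. Of 6 measured AhR partners 0 passed, and 0 of 40 other measured Cyp2 genes passed, with 15 at an unadjusted limma p under 0.05, beside 21.7% of all features.

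Facts of the arrays bear on all of these values. The 75th percentile of signal lay between 315 and 488 with CLC and between 424 and 457 without CLC, against 285 and 306 in Albumin-derived tumours, and 52.0% to 64.6% of probes were well above background. Hepatocyte markers were well above background on all arrays for 15 of 15 measured, and their summed signal relative to the 75th percentile was 4889 and 3531 with CLC and 4703 and 3856 without CLC, against 7351 and 6576 in Albumin-derived tumours. Bile duct markers (11 measured) summed to 63.1 and 112 with CLC and to 46.9 and 30.6 without CLC, against 6.64 and 40.9. Macrophage markers (8 measured) summed to 132 and 67.9 with CLC and to 49.3 and 81.2 without CLC, against 40.0 and 44.9. The hepatocyte sum was lower in all 4 Epcam-derived tumours. Of the 15 hepatocyte markers, 3 had a positive and 12 a negative difference over both Epcam-derived groups, beside 14339 and 13073 of all 27412 features. Of the bile duct markers 6 were positive and 5 negative, and of the macrophage markers 7 and 1. Endothelial markers gave 7 and 1, stellate and fibroblast markers 9 and 1, and T cell markers 3 and 2. The part of cell composition in the member differences was not tested.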

How the data were processed

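Each array gave 1 scanner file. Per the file headers, Agilent Feature Extraction 11.5.1.1 produced the intensity of each spot. The deposited processed signal is background-subtracted and not scaled between arrays. Other columns are the scanner's marks (well above background, outlier), per the file headers. The authors' deposited intensity values equal that signal times a constant for each array.

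Each array held 62976 spots, of which controls and flagged outliers were dropped. Levels are log2 processed signal minus the array's 75th percentile. Probes entered where both replicates of any group were marked well above background, and the brightest kept probe stood for a gene. Accessions were named through RefSeq. Differences were fitted with limma 3.58.1 in R 4.3.3 on all 6 arrays with 3 group coefficients, 3 residual and 2.62 prior degrees of freedom. Benjamini-Hochberg adjustment of the two-sided p-values ran over 27412 features, with a threshold of 0.05. Promoters were aligned with Biopython 1.88. The fit was run on simulated data with large planted differences only, and its power for smaller ones was not tested.

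All members were named, with near copies, Xist and the Y-linked genes. From other lists the genes past the threshold and the 2 largest rises and falls could be named. Further genes named for their role (Ugt1a6a) were chosen after their values were seen. Members and lists were chosen with earlier results of these data known. Alternatives were other background corrections, scalings, filters and probe rules, a trended prior, replicate or slide as a block, and leaving out each array. The number of arrays limits the precision.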

Additional observations from a re-analysis of the deposited data

How the results depend on the processing

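For the members, 358 alternative values of 21 differences were computed under 18 settings. In 342 the direction and the side of the threshold were as reported, 12 reversed and 4 became significant. Part of the 342 was fixed in advance. The authors' values rescaled to the same percentile as the reported levels repeat the reported data. The replicate block and the trended prior leave every difference unchanged and can move only its p-value. Averaging probes can alter only members with several probes. The 342 is therefore no count of independent checks. Over both Epcam-derived groups, 2 members passed with the authors' own scaling (Cyp1a1 at 4.30, Cyp1a2 at 4.06), an alternative added after seeing the data, 1 with normexp background on the median spot signal (Cyp1a2 at 2.75; Cyp1a1 fell to 1.16) and 1 with a trended prior. The authors' own scaling moved the median of all features to 0.35 and normexp to -0.14 (log2). Reversals came with slide as a block (Cyp1b1 without CLC -0.54; Cyp2b9 3.57 and 1.15, Cyp2b10 3.38 and 1.13, Cyp2b13 2.43 and 0.61, without CLC and over both groups; Pgrmc2, a heme-binding protein gene, 0.33 against -0.41), with the authors' own scaling (Cyp2a5 0.060 with CLC and 0.092 over both) and with quantile normalization (Cyp2a5 0.18 and 0.17). Leaving out 1 array, the Cyp2b10 difference without CLC lay between -8.28 and 0.24. With 1 array left out, the lone array of its group is taken to vary like the other groups. Cyp1a1 and Cyp2b13 had no value with a filter on all arrays, and no slide held both Albumin-derived tumours and those without CLC. The slide term therefore rests on the gap between the 2 tumours with CLC. The causes were not tested.

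Calls over all features ranged from 0 to 66 with CLC against Albumin-derived tumours (17 as reported), from 0 to 135 without CLC (67), and from 0 to 688 over both groups (223). With limma, 0 features passed in any comparison with slide as a block or without either Albumin-derived array. Deviations of replicate 1 from the group mean correlated at 0.232 between the Epcam-derived groups. They correlated at 0.062 between with CLC and Albumin-derived, and at -0.159 between without CLC and Albumin-derived. Whether same-numbered tumours belong together is not given by the labels, and these correlations do not settle it. With the replicate block, calls over both groups were 67 and no member passed; with the Albumin-derived numbers crossed, 1 member passed without CLC and 2 over both groups, with 96 and 244 features called.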

Other observations

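Among genes known as female-biased in mouse liver, Cyp3a44, a female-predominant P450, stood at -2.86 and -6.14 with CLC and at -5.46 and -7.65 without CLC, against 6.18 and 5.37 in Albumin-derived tumours. In tumours without CLC, where neither array was well above background, it was at least 2433-fold lower than in Albumin-derived tumours (limma adjusted p = 0.0417). Over both Epcam-derived groups Cyp3a44 fell (limma adjusted p = 0.0319), with 1 of the 4 arrays well above background and so no fixed size. Hao2, a peroxisomal hydroxy acid oxidase, was at least 169-fold lower in Epcam-derived tumours, where it was not well above background on any array (limma adjusted p = 0.0459). Of the 19 measured genes of that list 2 fell and 0 rose, beside 154 and 69 of all 27412 features. Serpina12, placed in the male-biased list, was the 1 of 22 genes of that list to pass, at least 8.48-fold higher than in Albumin-derived tumours, where it was not well above background (limma adjusted p = 0.0473). Under the alternatives the fitted log2 difference was as small as -4.79 for Hao2 and 1.33 for Serpina12, so these bounds hold only for the processing reported. Sex make-up may differ between the groups, and its part in these calls was not tested. Of 16 alternatives, the calls over both groups were lost in 7 for Cyp3a44, in 7 for Hao2 and in 11 for Serpina12. All 3 were lost with no filter, with slide as a block and without any 1 of 5 arrays, replicate 1 with CLC being the other array, and Serpina12 also without that array, with normexp, with quantile normalization and with the replicate block.

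Cyp4a12a, a male-predominant P450 of fatty acids, stood at 1.04 and 4.22 with CLC and at -4.38 and 4.84 without CLC, against 3.98 and 2.04 in Albumin-derived tumours. Cyp2c69, a female-biased P450, stood at 4.32 and 1.97 with CLC and at 3.76 and 0.67 without CLC, against 2.99 and 3.07 in Albumin-derived tumours. Cyp4a12a and Cyp2c69 were chosen after their values were seen and are given as values only. They do not stand for the other male-biased or female-biased genes.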
